A study of Danio rerio with 9 samples.

Results

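The genes described here are 6 growth arrest genes of the zebrafish, btg1, btg2, gadd45aa, gadd45ab, gadd45ba and gadd45bb. They were taken as all array probes whose RefSeq accession belongs to these genes, which gave 12 of the 43603 probes on the array and 6 of the 12900 genes that could be named. btg2 had 3 probes, gadd45bb had 1, and each of the other genes had 2. RNA of whole larvae at 5 days post fertilization was hybridised to 9 single-colour Agilent arrays, 3 per group. Control larvae were kept in 1% DMSO for 1 h and then in vehicle for 1 h. Larvae of the neomycin group had the same DMSO pretreatment, followed by 1 h in 200 µM neomycin. Those of the third group had 1 h in 50 µM tacrine, followed by 1 h in 200 µM neomycin. Neomycin, an aminoglycoside, is toxic to the sensory hair cells of the lateral line and the ear, and tacrine inhibits acetylcholinesterase. The strain is not given in the labels, and the number of larvae behind a sample is likewise not given in the sources used here. The design had no group with tacrine alone, and a DMSO level was stated only for larvae without tacrine, so tacrine, its solvent and its combination with neomycin cannot be told apart.

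GADD45 proteins are small acidic nuclear proteins without enzyme activity. In mammals they bind the kinase MAP3K4 upstream of p38 and JNK, the cyclin B complex of CDK1, the inhibitor p21 and the replication clamp PCNA, and they are transcribed within a short time of DNA damage, osmotic stress or cytokines. BTG and TOB proteins share a domain through which, in mammals, they recruit the CCR4-NOT deadenylase to messenger RNA, and they slow the entry of cells into division. Zebrafish have pairs of genes for the mammalian Gadd45a (gadd45aa and gadd45ab) and Gadd45b (gadd45ba and gadd45bb). In mammals Gadd45a and Btg2 are known to be transcribed after DNA damage, and Gadd45b as a target of NF-kB and TGF-beta signalling.

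Levels below are log2 signals relative to the 75th percentile of the array, and differences are between group means, with the moderated standard error (SE) and n = 3 per group. A level describes 1 probe and is not compared between probes or genes. A probe was called where the adjusted p of limma over all 31670 tested probes was under 0.05. The genes were chosen by their measured differences between the 3 groups on these arrays, so their differences and calls are a description and not a test. The 3 comparisons share arrays, and each is given by its own values. In whole larvae, more cells that contain a transcript and more transcript per cell cannot be told apart. The study describes the replicates as independent experiments, 3 for each group.

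All 12 probes were well above background on all 9 arrays and none was saturated. The 75th percentile of the signal was 105 to 137 on control arrays, 142 to 170 on neomycin arrays and 151 to 226 on arrays with tacrine and neomycin. Each of the 3 slides held 1 array per group, with the groups always at the same places, so the position of an array and its group cannot be told apart. Of the tissue marker lists for a whole larva, 5 of 8 hair cell, 6 of 6 skeletal muscle, 4 of 6 liver, 6 of 6 neuronal, 6 of 6 epidermal, 6 of 7 erythroid, 6 of 7 leukocyte, 4 of 5 lens and 4 of 6 proliferation markers were tested. All tested markers were well above background on all arrays. The hair cell list also holds the tight junction gene cldnb, which is not specific to hair cells. Its summed linear level was 39.2 to 64.1 times the 75th percentile on the control arrays, 32.6 to 41.8 with neomycin and 37 to 53.4 with both compounds. The summed level of the erythroid list was 419 to 526, 321 to 367 and 360 to 446. That of the liver list was 186 to 253, 154 to 179 and 185 to 192, and that of the lens list 277 to 350, 237 to 279 and 225 to 249. That of the proliferation list was 7.15 to 10.5, 7.84 to 9.58 and 7.96 to 8.71. With neomycin no marker was called by limma, beside 0.159% of all tested genes. At an unadjusted p under 0.05 by limma, 2 of 5 hair cell markers were lower and 1 higher, with differences from -1.04 to 0.68. Of 6 erythroid markers 2 were lower and 0 had a positive difference (-0.59 to -0.03). Of 4 liver markers 1 was lower, and the other lists had 0 on either side. Over all tested probes the share was 9.03%. With both compounds 2 erythroid markers rose against neomycin, the factor gata1a by 1.12 (SE 0.24, adjusted p = 0.0445 by limma) and the anion exchanger slc4a1a by 0.92 (SE 0.19, adjusted p = 0.0429 by limma). Against control, gata1a rose by 0.96 (SE 0.24, adjusted p = 0.049 by limma). The erythroid list was mixed against control, with differences from -0.41 to 0.96. At an unadjusted p under 0.05 by limma, 3 of its 6 tested markers were higher and 2 lower, beside 22.4% of all tested probes. At the same threshold 2 of 4 liver markers were higher against control, and 2 of 4 lens markers were lower. Of the hair cell markers 1 was higher and 2 were lower, and 1 epidermal, 1 leukocyte and 1 muscle marker were lower. Against neomycin 2 of 4 liver markers were higher as well. Of the hair cell list, pvalb8 was called lower against control, at -0.82 (SE 0.19, adjusted p = 0.0364 by limma). The less specific cldnb was called higher, by 1.39 (SE 0.26, adjusted p = 0.0201 by limma). No marker of the other lists was called in these comparisons. Of all tested genes, 2.76% were called against neomycin and 5.66% against control. The part of cell composition in the results below was not tested.

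With tacrine and neomycin, the 3 btg2 probes, the 2 gadd45ba probes and the gadd45bb probe rose against neomycin alone. The 2 gadd45ab probes rose against control, were higher than with neomycin by 0.83 and 0.86 without being called there, and no probe of btg1 or gadd45aa was called in any comparison. With neomycin alone, no member probe was called. The plot of levels by array shows the 9 values of each probe.

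**Figure D1:**
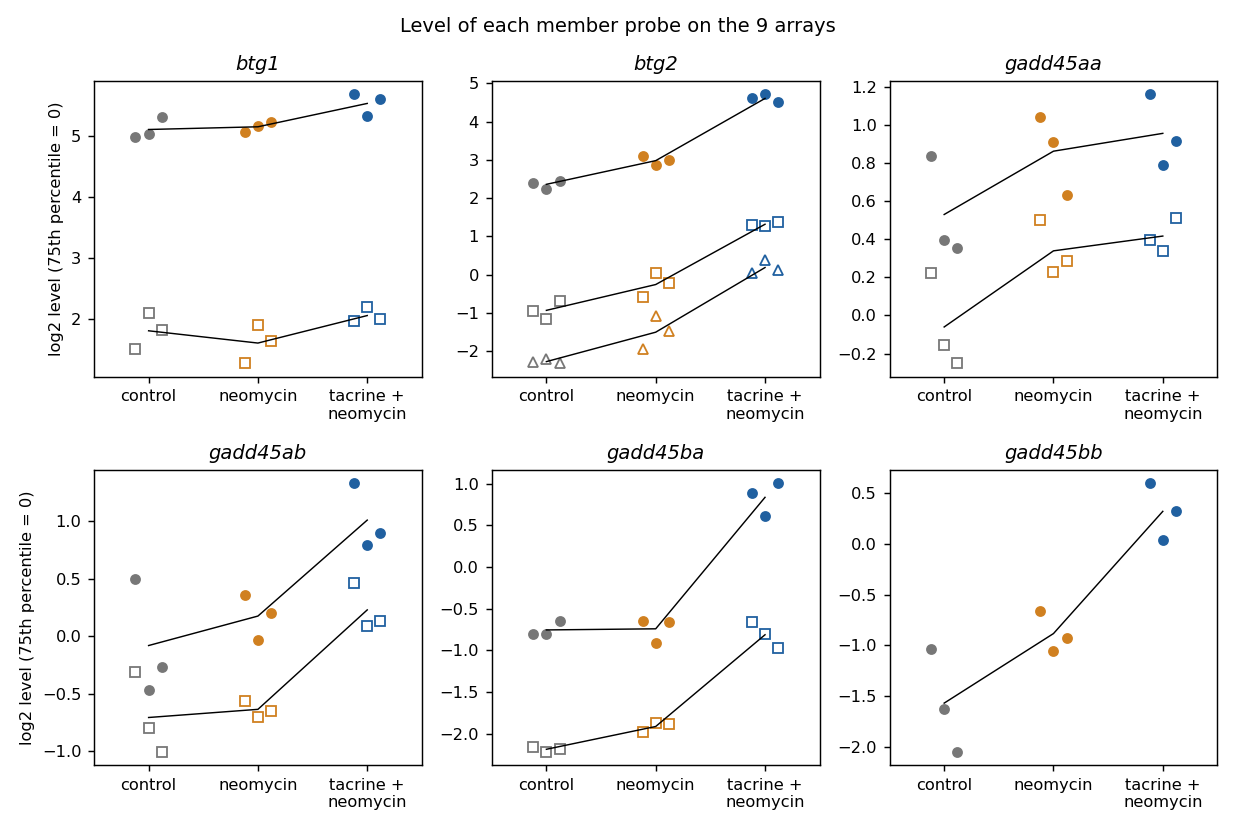
Level of each probe of the 6 genes on the 9 arrays (log2 signal, with the 75th percentile of the array at 0) by group. Filled circles are the probe with the highest mean, open squares and triangles the other probes, and lines join group means; only groups within a probe are comparable. All 3 btg2 probes step up from control to neomycin to both compounds, whereas the filled gadd45ba circles lie between -0.91 and -0.65 on the control and neomycin arrays and at 0.61 or more on the others.

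btg2, an immediate early antiproliferative gene in mammals, showed the widest differences of the 6 genes between the arrays with tacrine and control, on each of its probes. Against neomycin its brightest probe (1.63, SE 0.13) lay close to that of gadd45ba (1.58, SE 0.15). On probe A_15_P103119 the levels of btg2 were 2.40, 2.23 and 2.44 on the control arrays, 3.09, 2.85 and 2.99 with neomycin, and 4.60, 4.71 and 4.50 with tacrine and neomycin. The 3 groups did not overlap and stood in that order. With both compounds btg2 rose by 1.63 against neomycin (SE 0.13, 3.09-fold) and by 2.24 against control (SE 0.13, 4.74-fold). The difference between neomycin and control was 0.62 (SE 0.13, 1.54-fold), which was not called although every neomycin array exceeded every control array.

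The other btg2 probes showed the same order of groups without overlap. Probe A_15_P496122 measured -0.94, -1.16 and -0.70 on the control arrays, -0.59, 0.03 and -0.22 on the neomycin arrays, and 1.29, 1.28 and 1.38 with both compounds. Probe A_15_P658811 measured -2.29, -2.22 and -2.32, then -1.95, -1.09 and -1.48, then 0.05, 0.37 and 0.13. The neomycin arrays spread most on these probes, with the array of slide 1 lowest on each. Their differences were 0.67 (SE 0.19) and 0.77 (SE 0.21) for neomycin against control, 1.57 (SE 0.19) and 1.69 (SE 0.21) for both compounds against neomycin, and 2.25 (SE 0.19) and 2.46 (SE 0.21) for both against control. Of the 12 member probes, 4 had groups in this stepwise order without overlap, the 3 of btg2 and the dimmer of gadd45ba, whereas 0.932% of all probes did.

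gadd45ba, a zebrafish counterpart of the stress sensor Gadd45b, differed between the arrays with tacrine and all others. Probe A_15_P275566 measured -0.81, -0.81 and -0.65 on the control arrays, -0.65, -0.91 and -0.66 on the neomycin arrays, and 0.89, 0.61 and 1.00 with both compounds. The control and neomycin arrays overlapped, and each array with both compounds lay above them. gadd45ba rose by 1.58 against neomycin (SE 0.15, 2.98-fold) and by 1.59 against control (SE 0.15, 3.01-fold). The difference between neomycin and control was 0.01 (SE 0.15, 95% confidence interval -0.33 to 0.35).

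The second gadd45ba probe, A_15_P607467, differed from the first in the neomycin group. It measured -2.15, -2.22 and -2.19 on the control arrays, -1.98, -1.88 and -1.88 on the neomycin arrays, and -0.66, -0.81 and -0.97 with both compounds. Here the neomycin arrays lay just above the controls without overlap, by 0.27 (SE 0.13), and this was not called. On this probe gadd45ba rose by 1.099 against neomycin (SE 0.13, 2.14-fold) and by 1.37 against control (SE 0.13, 2.59-fold).

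gadd45bb, the paralogue of gadd45ba, had more spread among its control arrays. Probe A_15_P120345 measured -1.03, -1.63 and -2.05 on the control arrays, -0.67, -1.06 and -0.93 on the neomycin arrays, and 0.60, 0.04 and 0.33 with both compounds. The highest control array reached into the range of the neomycin arrays, and all arrays with both compounds lay above the rest. gadd45bb rose by 1.21 against neomycin (SE 0.26, 2.31-fold) and by 1.89 against control (SE 0.26, 3.71-fold). The call against neomycin was made in 6 of 16 alternative settings, and in 2 of the 9 fits that each left out 1 array; the call against control was made in 15 of 16. The difference between neomycin and control was 0.69 (SE 0.26), about as large as that of btg2, and was not called.

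gadd45ab, a counterpart of the DNA damage gene Gadd45a, had 1 control array above the other controls. Probe A_15_P491187 measured 0.50, -0.47 and -0.26 on the control arrays, 0.36, -0.03 and 0.20 on the neomycin arrays, and 1.33, 0.80 and 0.90 with both compounds. Probe A_15_P628336 measured -0.31, -0.80 and -1.004, then -0.56, -0.70 and -0.65, then 0.47, 0.09 and 0.14. On both probes the control array of slide 1 was the highest control, the neomycin arrays lay within the range of the controls, and the arrays with both compounds lay above all others. The differences between neomycin and control were 0.26 (SE 0.26) and 0.07 (SE 0.19).

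Against control, gadd45ab rose by 1.09 with both compounds (SE 0.26, 2.13-fold) on the first probe and by 0.94 (SE 0.19, 1.91-fold) on the second. Against neomycin the differences were 0.83 (SE 0.26) and 0.86 (SE 0.19), and neither was called. With the slide as a block, both were called against neomycin at the same sizes (adjusted p = 0.0439 and 0.0332 by limma), which made 8 called member probes instead of 6. The gadd45ab calls against control were lost in many fits that left out 1 array: 1 of 9 fits called the first probe and 4 of 9 the second. Without the control array of slide 1 the first probe was still called, and in each fit without 1 of the 3 arrays with both compounds it was not.

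gadd45aa, the other counterpart of Gadd45a, showed small differences. Probe A_15_P116197 measured 0.84, 0.40 and 0.36 on the control arrays, 1.04, 0.91 and 0.63 on the neomycin arrays, and 1.16, 0.79 and 0.91 with both compounds. The neomycin arrays and those with both compounds covered nearly the same range, and the highest control lay inside it. The differences were 0.33 (SE 0.19) for neomycin against control, 0.09 (SE 0.19, 95% confidence interval -0.32 to 0.51) for both compounds against neomycin, and 0.43 (SE 0.19) for both against control. The second probe, A_15_P171836, gave 0.40, 0.08 and 0.48 (SE 0.16 each), and its controls of 0.22, -0.15 and -0.25 lay below all 3 neomycin arrays. None of these was called.

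btg1, the paralogue of btg2 known for holding lymphocytes in a resting state in mammals, also showed small differences. Probe A_15_P106675 measured 4.98, 5.05 and 5.31 on the control arrays, 5.07, 5.17 and 5.23 on the neomycin arrays, and 5.69, 5.33 and 5.61 with both compounds. The lowest array with both compounds, 5.33, lay just above the highest control, 5.31. The differences were 0.04 (SE 0.15), 0.38 (SE 0.15) and 0.43 (SE 0.15). On the second probe, A_15_P414460, they were -0.20, 0.45 and 0.25 (SE 0.21 each), and its arrays with both compounds, between 1.96 and 2.20, overlapped the controls, between 1.497 and 2.098. This was the only negative difference among the 12 probes in the 3 comparisons.

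**Figure D2:**
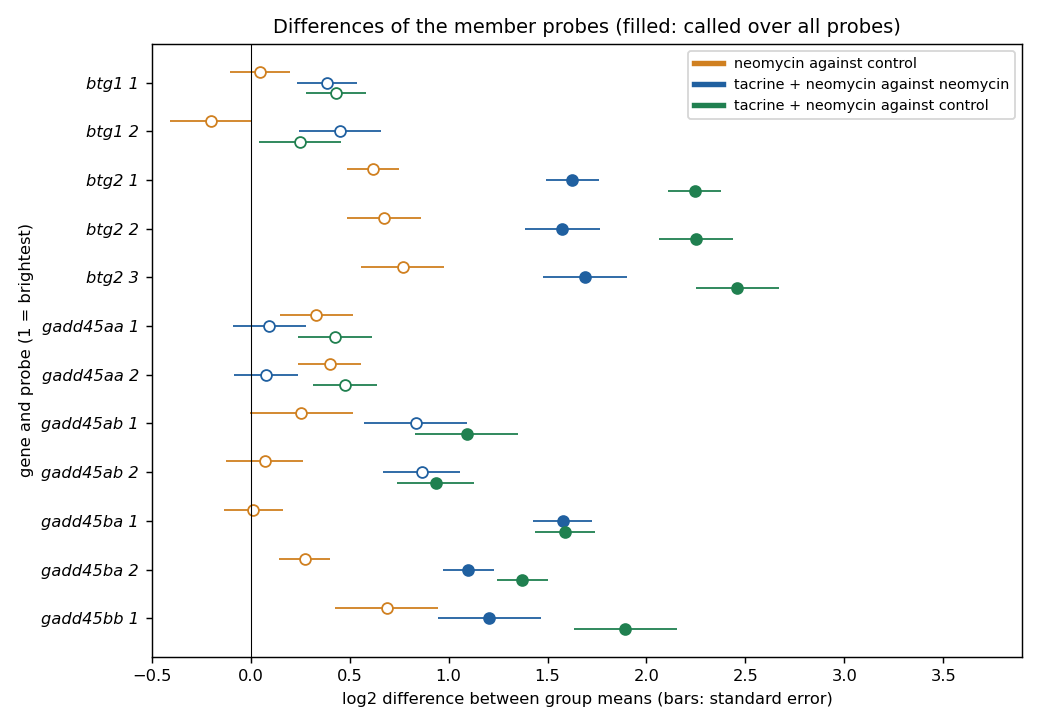
Log2 difference of each probe of the 6 genes in the 3 comparisons, with the standard error as bars; filled points were called over all 31670 probes. The called points are those of btg2, gadd45ba and gadd45bb in both comparisons of the arrays with tacrine and of gadd45ab against control; no point of neomycin against control is filled.

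In neomycin against control, 0 of 12 member probes were called by limma, against 0.117% of all probes in either direction and 0.0853% higher, and 5 had an unadjusted p under 0.05, against 9.03% of all. The median difference of the members was 0.30, against -0.02 over all probes. In both compounds against neomycin, 6 of 12 were called, all higher, against 2.67% of all probes in either direction and 1.8% higher. The median was 0.98 against -0.02. In both compounds against control, 8 of 12 were called, all higher, against 5.92% in either direction and 3.17% higher. The median was 1.23 against -0.05. Since the genes were chosen for such differences, these shares are given side by side and nothing is read from them.

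The neomycin arrays lay above all control arrays on 5 of 12 member probes, against 5.79% of all probes. The arrays with both compounds lay above all neomycin arrays on 10 of 12, against 12% of all, and above all control arrays on 10 of 12, against 12.4%. They lay above all 6 other arrays on 9 of the 12 member probes, against 6.93% of all. The exceptions were the 2 probes of gadd45aa and the dimmer probe of btg1. Within slides, the difference between both compounds and control was positive on every slide for 12 of 12 probes, against 20.9% of all probes. For both compounds against neomycin this held for 10 of 12, the exceptions being those of gadd45aa, and for neomycin against control for 7 of 12 (21.5% and 15.4% of all probes). On its lead probe btg2 differed by 1.51, 1.85 and 1.51 between both compounds and neomycin on the 3 slides, gadd45ba by 1.54, 1.52 and 1.67, and gadd45bb by 1.27, 1.09 and 1.26. Between neomycin and control, gadd45bb differed by 0.37, 0.57 and 1.13, and gadd45ba by 0.16, -0.10 and -0.01. The slides thus gave like values for the first of these comparisons, and for gadd45bb with neomycin the value of slide 3 stood above the other two.

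**Figure D3:**
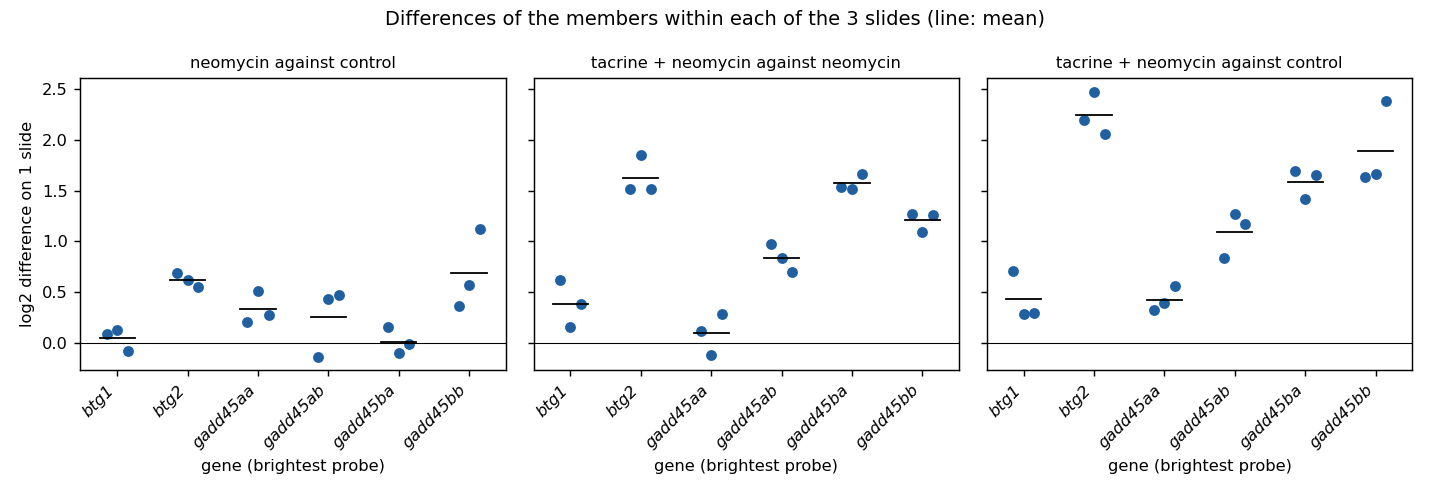
Log2 difference within each of the 3 slides for the brightest probe of each gene, in the 3 comparisons; points are slides and lines their means. Between both compounds and neomycin the points of btg2, gadd45ab, gadd45ba and gadd45bb lie between 0.70 and 1.85, and those of gadd45aa lie on both sides of 0.

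With a different background correction (normexp on the median signals), fewer members were called: 0 against neomycin, and 2 against control, both of btg2. It moved the median over all probes to -0.35 in neomycin against control and to -0.41 in both compounds against control. All 12 members stayed positive in both comparisons of the arrays with tacrine, and 7 of 12 in neomycin against control. Relative to the shifted median, 11 of 12 were positive in the latter, the same number as in the main setting. The probes that turned below 0 there were both of gadd45ba (-0.13 and -0.42), that of gadd45bb (-0.10), the dimmer of gadd45ab (-0.24) and the dimmest of btg2 (-0.17), whereas the second btg1 probe turned above 0 (0.33). In both compounds against control the sizes changed as well. They grew for both btg1 probes, the brightest gadd45aa probe and the brightest btg2 probe (2.24 to 2.94), and shrank for all others. The dimmest btg2 probe went from 2.46 to 0.97, that of gadd45bb from 1.89 to 0.76 and the dimmer of gadd45ba from 1.37 to 0.23. The folds given above are those of the main setting.

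The other genes of both families were described from a list of 10, of which 6 were on the array and 5 were tested; tob2 and the btg5 genes were not analysed here, and the btg4 probe did not pass the background filter. tob1a and tob1b, counterparts of the mammalian antiproliferative gene TOB1, rose with both compounds. The tob1a probe measured 0.84, 0.51 and 1.01 on the control arrays, 0.77, 0.56 and 1.12 on the neomycin arrays, and 1.74, 2.02 and 1.92 with both. It rose by 1.08 against neomycin (SE 0.19, 2.11-fold, adjusted p = 0.0246 by limma) and by 1.11 against control (SE 0.19, adjusted p = 0.014). Controls and neomycin arrays of tob1a covered nearly the same range, with a difference of 0.03 (SE 0.19).

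On its brightest probe tob1b measured 3.64, 3.44 and 3.56 on the control arrays, 3.76, 3.57 and 3.77 on the neomycin arrays, and 4.41, 4.22 and 4.40 with both compounds. It rose by 0.64 against neomycin (SE 0.13, 1.56-fold, adjusted p = 0.0397 by limma) and by 0.80 against control (SE 0.13, adjusted p = 0.0115). The second tob1b probe rose as well, by 0.86 and 1.06 (adjusted p = 0.0203 and 0.0048 by limma). When 1 array was left out, the calls against control were kept in 8 of 9 fits for tob1a and 9 of 9 for tob1b, and those against neomycin in 4 and 1. Every array with both compounds exceeded all others for tob1a and tob1b.

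gadd45ga, a counterpart of the third mammalian family member, measured 1.32, 1.06 and 0.72 on the control arrays, 1.55, 0.85 and 1.31 on the neomycin arrays, and 1.88, 1.61 and 1.74 with both compounds on its brightest probe. The last group lay above the other two, by 0.51 against neomycin (SE 0.22, adjusted p = 0.268 by limma) and 0.71 against control (SE 0.22, adjusted p = 0.09). For gadd45gb.1 the differences were 0.29, -0.09 and 0.21 (SE 0.20 each), and for btg3 0.35, -0.07 and 0.28 (SE 0.17 each), with adjusted p of 0.383 or more by limma. Thus 2 of the 5 tested relatives rose against neomycin and against control, beside 1.92% and 3.37% of all 11326 tested genes called higher. With neomycin alone 0 of 5 were called by limma on their brightest probe, beside 0.115% of all genes called higher, and 0 of these probes had an unadjusted p under 0.05. The second gadd45gb.1 probe measured 0.57 higher with neomycin than in controls (SE 0.20), with every neomycin array above every control, and was not called (adjusted p = 0.424 by limma).

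**Figure D4:**
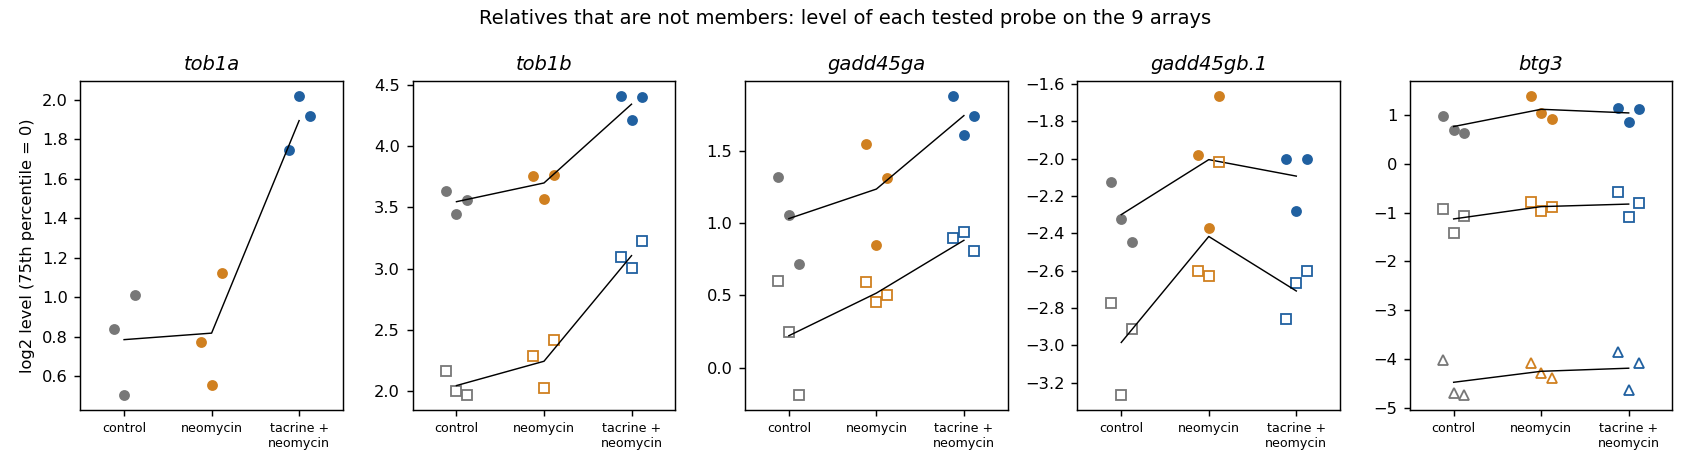
Level of each tested probe of 5 relatives on the 9 arrays (log2 signal, with the 75th percentile of the array at 0), with symbols as in the plot of the member genes. For tob1a and tob1b the arrays with both compounds lie above all others; on the brightest probes of gadd45gb.1 and btg3 the groups overlap.

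Of the partners through which GADD45 proteins act, 6 of 19 listed genes were tested, and 0 were called in any comparison by limma. Of all tested genes, 0.159%, 2.76% and 5.66% were called, so 0 calls among 6 genes says little. At an unadjusted p under 0.05 by limma there were 0 as well, beside 9.03%, 17.5% and 22.4% of all tested probes. The differences of these partners ran from -0.20 to 0.27 with neomycin and from -0.06 to 0.46 with both compounds against control. map3k4 and cdkn1a, the gene of p21, were not analysed here. A list of BTG partners held CCR4-NOT subunits, other genes linked to mRNA decay, and prmt1 and hoxb9a, which are not decay factors. Of its 20 genes, 15 were tested. In the 3 comparisons 0 were called by limma, beside the same 0.159%, 2.76% and 5.66% of all tested genes. At an unadjusted p under 0.05 there were 0, 0 and 3, the last against control and all lower, beside 9.03%, 17.5% and 22.4% of all tested probes. The medians of this list were -0.07, -0.02 and -0.04, beside -0.01, -0.03 and -0.05 over all genes.

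Of 25 tested genes of the DNA damage response list, 0 were called by limma with neomycin, beside 0.159% of all tested genes. In both compounds against neomycin 0 were called as well, beside 2.76%. At an unadjusted p under 0.05 by limma there were 4, 7 and, against control, 8 (3 higher and 5 lower). Of all tested probes 9.03%, 17.5% and 22.4% were under it. Against control, 2 rose and 3 fell with both compounds, beside 5.66% of all tested genes called in either direction. sesn2, a stress-induced regulator of TORC1, measured -1.95, -1.85 and -1.77 on the control arrays, -1.15, -1.31 and -1.08 with neomycin and -0.68, -0.97 and -0.28 with both, a rise of 1.21 against control (SE 0.18, adjusted p = 0.00766 by limma). The kinase gene plk3 rose by 0.76 (SE 0.16, adjusted p = 0.0312 by limma). The related sestrins fell, sesn1 by 1.02 (SE 0.17, adjusted p = 0.0113 by limma) and sesn3 by 0.88 (SE 0.16, adjusted p = 0.0159 by limma), and so did ei24, by 0.66 (SE 0.15, adjusted p = 0.0354 by limma). When 1 array was left out, the calls of sesn1 and sesn2 were kept in 9 of 9 fits, that of sesn3 in 5, that of plk3 in 4 and that of ei24 in 2. Under normexp all 5 calls were lost, and the differences of the sestrins were 0.017 for sesn1, 0.26 for sesn2 and -0.02 for sesn3.

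Of 31 tested cell cycle genes, 0 were called by limma with neomycin, beside 0.159% of all tested genes. In both compounds against neomycin 0 were called as well, beside 2.76%. At an unadjusted p under 0.05 by limma there were 2, 6 and, against control, 3 (all lower). Of all tested probes 9.03%, 17.5% and 22.4% were under it. Against control, 1 was called, beside 5.66% of all tested genes: the cyclin-dependent kinase cdk4 fell by 0.58 (SE 0.13, adjusted p = 0.0408 by limma). Its probe was dim, well above background on 1 of 3 control arrays and 2 of 3 arrays with both compounds, and the call was made in 3 of 14 alternative settings.

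Among 25 tested factors that are known in mammals to act upstream of GADD45 or BTG genes, 1 was called with neomycin, 5 in both compounds against neomycin and 5 in both compounds against control. Of all tested genes, 0.159%, 2.76% and 5.66% were called in these comparisons. The calls against control include that of foxo1a, whose direction there depends on the setting. atf3, a stress-induced transcription factor, was the gene called in all 3 comparisons. It measured 0.31, -0.03 and 0.06 on the control arrays, 2.11, 1.59 and 1.43 on the neomycin arrays, and 3.07, 2.51 and 2.78 with both. It rose by 1.59 with neomycin (SE 0.22, adjusted p = 0.0429 by limma), by a further 1.08 with both compounds (SE 0.22, adjusted p = 0.0374), and by 2.67 against control (SE 0.22, adjusted p = 0.000439). The 3 groups stood in the same order as for btg2, without overlap. When 1 array was left out, each of the calls that involve neomycin alone was kept in 2 of 9 fits.

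cebpb and cebpd, inflammatory transcription factors of the C/EBP family, rose with both compounds. cebpb measured 3.78, 3.23 and 3.64 on the control arrays, 5.05, 4.67 and 4.57 on the neomycin arrays, and 5.92, 5.58 and 5.58 with both. Its groups stood in the order of btg2 without overlap. cebpb rose by 0.93 against neomycin (SE 0.20, adjusted p = 0.0459 by limma, kept in 2 of 9 fits with 1 array left out) and by 2.14 against control (SE 0.20, adjusted p = 0.000738). With neomycin alone it was higher than in controls by 1.22, which was called in 2 of 16 alternative settings and not in the main one. cebpd measured 4.63, 4.80 and 4.63 on the control arrays, 4.98, 5.11 and 4.81 on the neomycin arrays, and 6.03, 6.17 and 6.05 with both. It rose by 1.12 against neomycin (SE 0.13, adjusted p = 0.00485 by limma) and by 1.39 against control (SE 0.13, adjusted p = 0.000868). The difference of cebpd between neomycin and control was 0.28, which was not called.

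Of the 3 tested inhibitors of NF-kB, nfkbiaa rose by 1.54 with both compounds against control (SE 0.19, adjusted p = 0.00281 by limma), and its difference from neomycin was 0.48 (SE 0.19), which was not called. With neomycin alone nfkbiaa was higher than in controls by 1.05, which was not called in the main setting. nfkbie measured 0.03, -0.17 and -0.07 on the control arrays, 0.65, 0.41 and 0.49 with neomycin and -0.64, -0.35 and -0.25 with both, a fall of 0.93 against neomycin (SE 0.15, adjusted p = 0.015 by limma); against control its difference of -0.35 (SE 0.15) was not called. nfkbiab was not called in any comparison. For nfkbie the neomycin arrays were thus the highest and those with both compounds the lowest. The forkhead factor foxo1a was not well above background on any neomycin array. In the main setting the measured difference between both compounds and neomycin was 1.44 (adjusted p = 0.00562 by limma). Neomycin values below the lowest signal of any probe well above background on their array were also raised to it, which gave 2.68-fold. That floor is not the limit of this probe. Its controls of -4.88, -4.39 and -4.65 exceeded the neomycin mean of -5.06, yet only 1 was well above background. The 2.68-fold is therefore not a lower bound. Under normexp the call was lost. Over the alternatives the difference ran from 0.06 to 1.58, so its size depends on the setting. Against control foxo1a was called (adjusted p = 0.0153 by limma), but only 1 of 3 control arrays measured it well above background. Under normexp the difference was -0.71, opposite to the main setting, so no size or direction is given for it.

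Over the 103 tested genes of the 6 lists, 1, 7 and 13 were called in the 3 comparisons, beside 0.159%, 2.76% and 5.66% of all tested genes. The 13 include foxo1a, whose direction against control depends on the setting, and the dim cdk4. The called genes came from the relatives, the DNA damage response list, the cell cycle list and the upstream factors. The plot by gene list shows the members beside these lists.

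**Figure D5:**
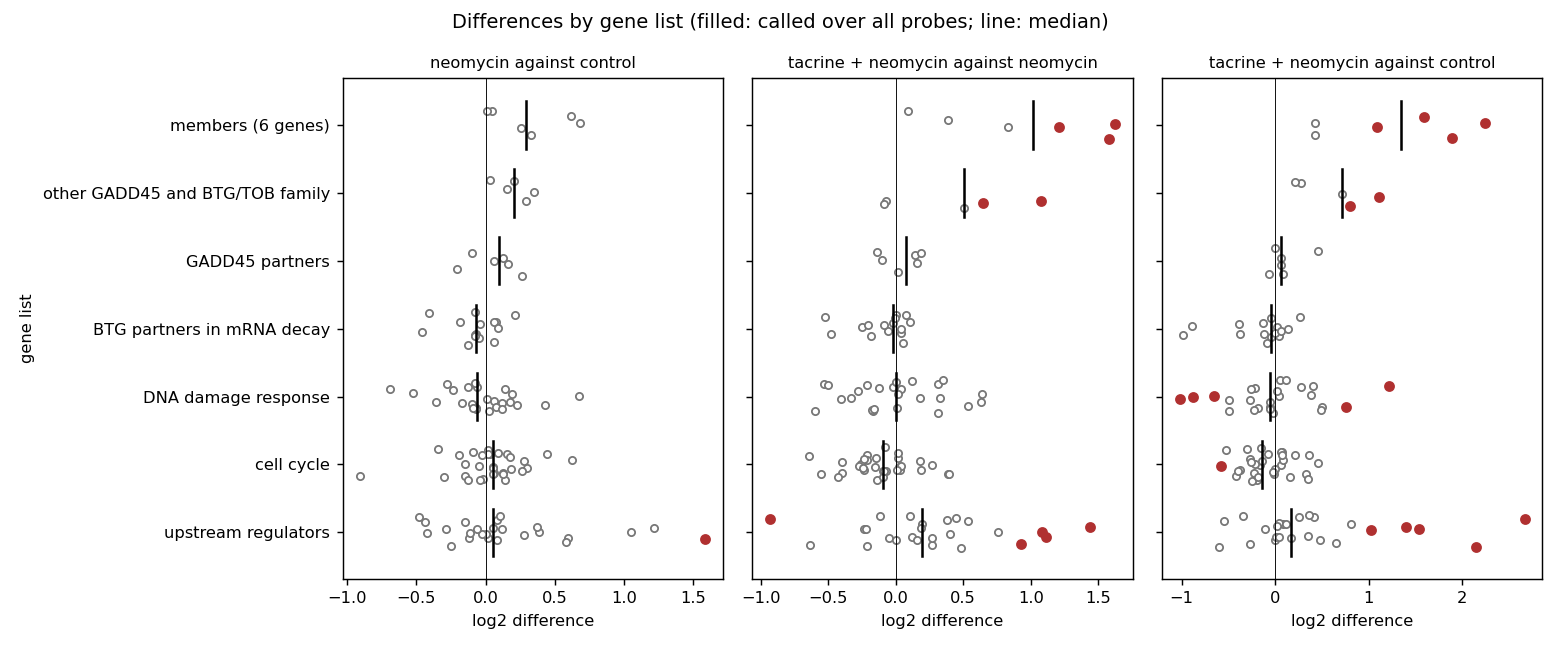
Log2 difference of each tested gene (brightest probe) in the 6 member genes and the 6 lists, in the 3 comparisons; filled points were called over all probes and vertical lines are medians. In neomycin against control the only filled point is atf3, at 1.59. foxo1a against neomycin is drawn at its measured difference, although it was not well above background on any neomycin array. It is also filled against control, where its direction depends on the setting.

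The genes whose profile over the 9 arrays was most like that of each called member were found by the root mean square difference after centring each gene. The search covered 10574 genes with a value on all arrays and a symbol other than a placeholder. Genes known only by a placeholder symbol could therefore not appear. For btg2 the nearest were rrad (0.22), bzw1b (0.24), mafk (0.24), mycb (0.25) and socs3b (0.27), whereas the median over the searched genes was 0.99. For gadd45ba they were midn (0.12), the phosphatase gene dusp1 (0.13), adam8a, xpo6 and slc25a25b (0.14 each), against a median of 0.81. For gadd45bb they were cremb (0.13), bzw1b (0.17), dhrs13a.2 (0.19), rgs2 (0.20) and socs1a (0.21), and for gadd45ab hbae4 (0.15), sat1a.2 (0.16), papss2a (0.17), sdc4 (0.18) and slc25a33 (0.19). The median over the searched genes was 0.88 for gadd45bb and 0.60 for gadd45ab. Probes of the same member gene differed from each other by 0.13 to 0.29, and no named neighbour was farther than 0.27 from its member.

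The neighbours were picked for likeness over all arrays, so their differences follow those of the members. With neomycin alone, the neighbours of gadd45ba differed from control by -0.17 to 0.04, and those of btg2 by 0.29 to 0.81. In both compounds against neomycin the neighbours of gadd45ba lay between 1.39 and 1.54, and those of btg2 between 1.28 and 1.91. bzw1b was near to both btg2 and gadd45bb, with differences of 0.56 and 1.28 in these comparisons. Between members, btg2 was 0.33 from gadd45ba and 0.35 from gadd45bb, btg1 was 0.28 from gadd45aa, and btg2 and gadd45aa were farthest apart at 0.82. Profiles were centred but not scaled, so genes that vary little lie close together whatever their pattern. On their brightest probes btg1 and gadd45aa ranged over only 0.71 and 0.80 on the 9 arrays, and btg2 over 2.47. All these distances rest on the same 9 arrays and describe likeness of profile only.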

How the data were processed

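RNA of 9 samples of whole larvae was measured on Agilent arrays. The scanner files that the authors deposited hold linear intensity per the file headers, as a background-corrected processed signal and as median signals; the deposited flag columns (0 or 1, another unit) mark spots well above background. Feature Extraction is version 10.1.1.1 per the file headers and 8.0 per the submitters' processing notes. A deposited matrix of log2 values, made by the authors by a method not given in the sources used here, was an alternative only.

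From the log2 processed signal, averaged over spots of a probe, each array's 75th percentile was subtracted. Probes well above background on at least 3 of 9 arrays (31670) were fitted in R 4.3.3 by limma 3.58.1 (eBayes without trend, two-sided, 6 residual and 3.12 prior degrees of freedom, Benjamini-Hochberg adjustment). Outlier spots were left out. The fit was also run on simulated data with independent noise and no slide effect, so that run cannot show how it behaves where arrays of a slide are alike. The probe with the highest mean stands for a gene. Symbols come from RefSeq accessions matched to GRCz12tu, and 25173 probes have 1 symbol. No position or sequence is given.

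The members and lists were chosen with earlier results of these data known. Named are all members, each called list gene, the other relatives and the 5 nearest profiles of each called member. Most other genes counted in the lists are not reported by name here. Alternatives were normexp (offset 50, on median signals, the spot signal column used), quantile normalization, other filters, trended robust variances, the slide as a block, the deposited matrix and leaving out each array. Replicate number equals slide in the headers. Deviations of same-numbered arrays correlated at -0.08 to 0.26 (6 of 9 pairs over 0.1), and of others at -0.30 to 0.13 (1 of 18).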

Additional observations from a re-analysis of the deposited data

How the results depend on the processing

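Of 948 values of single genes under the alternatives, 932 kept their direction, 116 lost and 5 gained a call. Normexp called 0, 12 and 67 probes in the comparisons of neomycin with control, of both compounds with neomycin and of both with control (37, 846 and 1875 in the main setting; higher 91.7% and 98.5% of the calls in the latter comparisons, against 67.5% and 53.5%), 0 and 2 member probes in the latter comparisons, and 0, 0 and 1 list genes. With no filter 20 and 496 probes were called with neomycin and in both compounds against neomycin, and 0 and 4 list genes. For neomycin against control, probes above background on all arrays gave 73 probes and 3 list genes, the slide (replicate) block 22 probes, the matrix 18 probes, trended variances 70 probes and 4 list genes, and quantile normalization 2 list genes. Without each array in turn, 11 to 65, 272 to 976 and 787 to 1847 probes were called, 5 to 7 and 6 to 8 member probes in the latter comparisons, and 0 to 1, 2 to 7 and 8 to 13 list genes. The lowest count against neomycin, 272, came without the array with both compounds of slide 1. The paired (slide block) fit called 8 member probes against neomycin instead of 6 and changed no other member call.

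With arrays left out, directions turned only where differences were small. In neomycin against control btg1 turned without control 1 (-0.021, from there to 0.143 with each array left out). gadd45ba turned without control 1 or 2 (-0.01 each) and without neomycin 1 or 3 (-0.03 each, -0.0332 to 0.0984 over arrays left out). tob1a turned without control 2 (-0.11) or neomycin 3 (-0.12, up to 0.164). In both compounds against neomycin gadd45aa turned without neomycin 3 (-0.0225) or tacrine and neomycin 1 (-0.01, up to 0.184). Under normexp larger differences turned as well. In neomycin against control these were gadd45bb (from 0.69 to -0.10), sesn1 (from -0.52 to 0.45), sesn2 (from 0.68 to -0.075) and sesn3 (from -0.28 to 0.53), beside the small one of gadd45ba (-0.13). Against control sesn1 (from -1.02 to 0.017) and foxo1a (to -0.71), both called in the main setting, turned under normexp. The cause of the normexp differences was not tested. The number of arrays limits precision: the median SE of a log2 difference was 0.20.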
